A study of Homo sapiens with 9 samples.

Results

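The RNA-seq of multicellular tumor spheroids (MTSs) was examined for 10 genes that set the brake and the entry signal of the G1 phase of the cell cycle, chosen by their gene symbols: the CIP/KIP inhibitors CDKN1A, CDKN1B and CDKN1C, the INK4 family CDKN2A, CDKN2B, CDKN2C and CDKN2D, and the D-type cyclins CCND1, CCND2 and CCND3. All 10 were among the 27111 genes quantified in each library, and all 10 were among the 17108 genes that passed the filter on low counts. CCND2 passed only through its counts in the NF-YA-overexpressing spheroids, so it is described by its counts and left out of the calls over the other 9 members.

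D-type cyclins bind the kinases CDK4 and CDK6, and the resulting complexes start the phosphorylation of RB1 and its relatives, which releases E2F factors and lets cells enter S phase. INK4 proteins bind CDK4 and CDK6 and keep cyclin D away, whereas CIP/KIP proteins bind complete cyclin-CDK complexes, stop those with CDK2, and help cyclin D and CDK4 to assemble. The amount of p27, the CDKN1B product, depends largely on degradation of the protein through SKP2, which RNA does not report.

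The cells were PC-3, an androgen-unresponsive human prostate cancer line derived from a bone metastasis, grown as spheroids in Matrigel-containing medium and sequenced as stranded total RNA. The Empty group carried the lentiviral vector without insert, the NF-YAl group overexpressed the long splice isoform of murine NF-YA, and the NF-YAs group overexpressed the short one. All 3 lines, Empty included, had been transduced and selected with puromycin, and NF-YA is the DNA-binding subunit of NF-Y, a trimer that recognises the CCAAT box. Each group had 3 libraries of pooled spheroids, with the letters A to C, except that NF-YAl has D in place of C. Libraries of a group came from 1 transduced line, so the tests measure the spread between spheroid cultures and not between independently made lines. Because spheroids were sequenced whole, a lower level can mean fewer cells that carry the RNA or less RNA per cell, which cannot be told apart here.

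Libraries held 18076979 to 27163976 expected counts. NFYA, to which the transgene reads also map, rose from 91.8 ± 4.24 CPM (SD, n = 3; CPM are counts scaled to a common library size) in Empty to 341 ± 49.3 with NF-YAl and 261 ± 5.71 with NF-YAs. Of the 4 epithelial markers, the keratins KRT8, KRT18 and KRT19 were at 109 to 631 CPM in all libraries and lower in both lines than in Empty (log2 fold changes of -1.33, -0.42 and -0.71 with NF-YAl and -0.78, -0.49 and -0.79 with NF-YAs, edgeR adjusted p 2.5e-06 to 0.00722). EPCAM, at 0.945 to 1.05 CPM in Empty, was higher in both (2.16 and 1.46, adjusted p = 5.49e-05 and 0.000878). The part of these epithelial differences in the results was not tested. KLK3 and HBB were at 0, and 6 of the 7 markers of immune, endothelial, erythroid and smooth muscle cells were at most 1.06 CPM. The exception, endothelial PECAM1, was at 5.49 to 7.32 CPM in Empty, 4.83 to 5.96 with NF-YAl and 1.59 to 2.12 with NF-YAs, and its part in the results was not tested. Library NF-YAl D stood apart, since genes shorter than 350 bases took 20.5% of its length-corrected abundance (TPM) against 44.5% to 58.7% in the other 8 libraries. Levels between libraries are therefore given as CPM scaled by TMM, and TPM, which corrects for length, is used only within a library.

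Within the Empty spheroids CCND1 was by far the most abundant member, with 194 ± 32.8 TPM (SD, n = 3), followed by CDKN2A (41.3 TPM), CDKN2C (35.1), CCND3 (28.3), CDKN2B (17.0), CDKN1A (15.8), CDKN1C (11.6), CDKN1B (10.3) and CDKN2D (10.2). CCND2 was nearly silent, at 0.01 TPM or less. Each of the first 4 exceeded the next gene in all 3 Empty libraries. CDKN2B exceeded CDKN1A in 1 library, CDKN1C exceeded CDKN1B in 2, and CDKN1B exceeded CDKN2D in 1, so these neighbours did not keep 1 order.

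Against Empty, NF-YAl spheroids had more CDKN2B, while NF-YAs spheroids had less CDKN1C and less CDKN1B. Between the lines overexpressing the isoforms, CDKN1B was higher with NF-YAl than with NF-YAs. With edgeR's quasi-likelihood test, Benjamini-Hochberg adjustment over all 17108 genes and an adjusted p under 0.01, 1 of the 9 members was higher and 0 lower in NF-YAl against Empty, beside 10% of all genes called higher and 9.54% called lower. In NF-YAs 0 were higher and 2 lower, beside 12.1% and 10.5% of all genes. In NF-YAl against NF-YAs 1 was higher and 0 lower, beside 4.7% and 6.25%. At an unadjusted p under 0.05 the counts in either direction were 2, 5 and 5 in the same order, beside 42.2%, 45% and 36.5% of all genes. DESeq2 called 1, 3 and 2 at the adjusted threshold, beside 24.4%, 27.3% and 16.8%. A differentially expressed gene (DEG) also needed an absolute log2 fold change above 1, which 0 of the 9 met in NF-YAl, beside 8.27% of all genes, 1 (CDKN1C) in NF-YAs, beside 9.34%, and 0 in the direct comparison, beside 4.61%. The median log2 fold change of the 9 members was -0.12 in NF-YAl and 0.052 in NF-YAs, against 0.01 and -0.00 over all genes tested. Both comparisons with Empty share the Empty libraries.

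**Figure D1:**
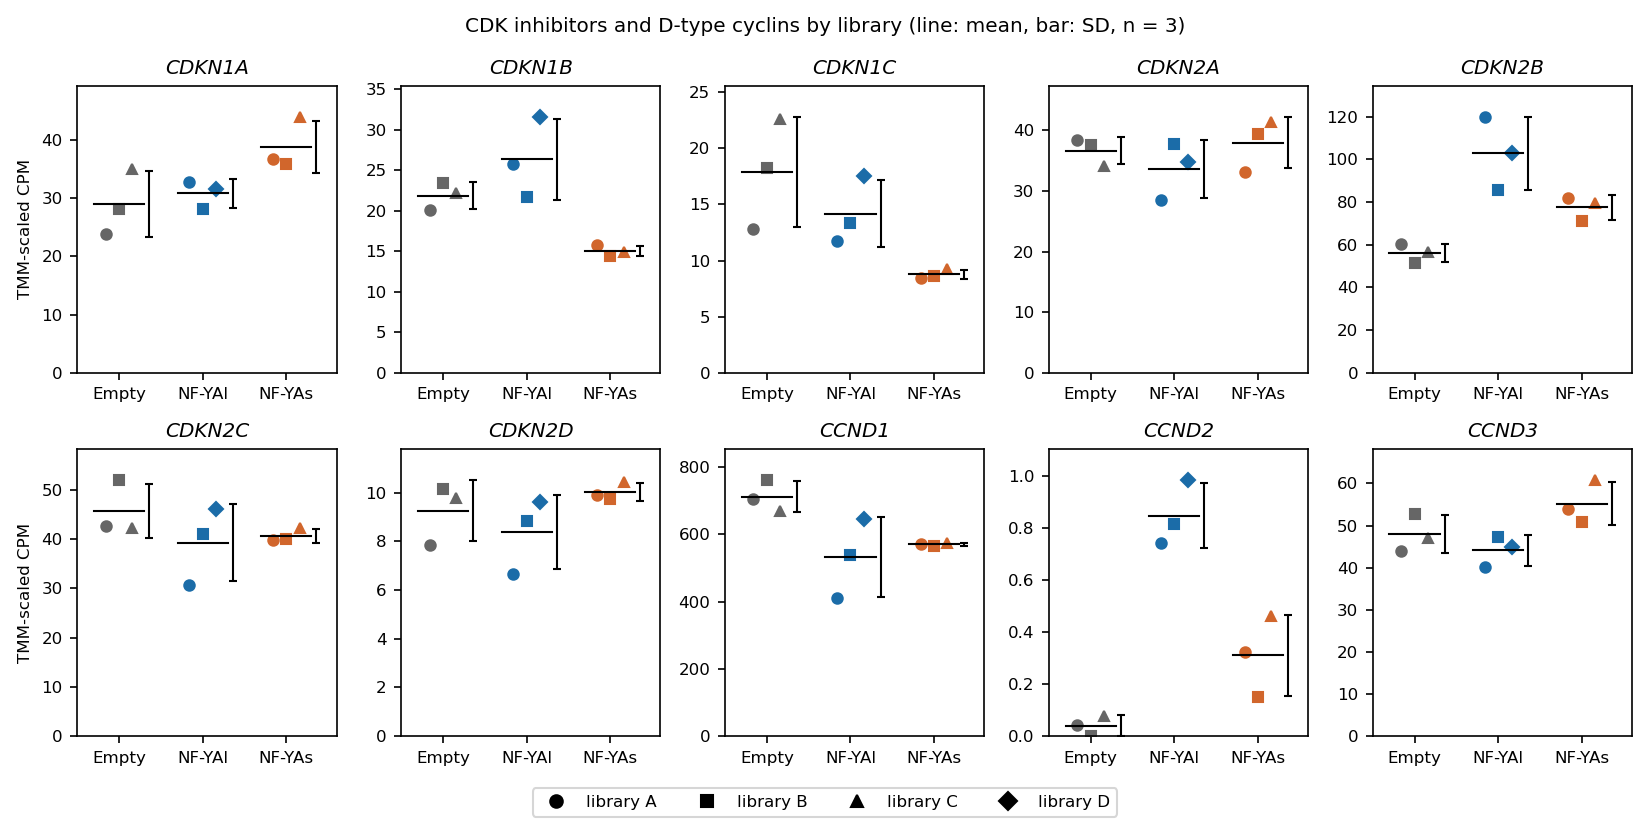
TMM-scaled CPM of each member on the y axis, starting at 0, for the Empty, NF-YAl and NF-YAs groups on the x axis. Each symbol is 1 library, the line is the group mean and the bar the SD (n = 3). CDKN2B and CCND2 are lowest in Empty, and the 3 NF-YAs libraries lie below all others for CDKN1B (14.4 to 15.7 CPM) and CDKN1C (8.46 to 9.22 CPM).

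CDKN1A encodes p21, a CIP/KIP inhibitor known for its induction by DNA damage. In the GRCh37 build used by the authors it lies at chr6:36644237-36655114 on the plus strand. Its level was 23.8, 28.1 and 35.0 CPM in Empty A, B and C, 32.7, 28.1 and 31.6 with NF-YAl A, B and D, and 36.7, 35.8 and 44.0 with NF-YAs A, B and C. The NF-YAs libraries all exceeded Empty, although the lowest of them by less than 1 CPM, and NF-YAl overlapped Empty. The log2 fold change was 0.42 ± 0.142 (SE) in NF-YAs (adjusted p = 0.0354) and 0.09 ± 0.142 in NF-YAl (adjusted p = 0.692), and neither passed the threshold. The difference between NF-YAl and NF-YAs was -0.34, with a 95% confidence interval of -0.64 to -0.03 (adjusted p = 0.107).

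CDKN1B encodes p27, at chr12:12838432-12875303 on the plus strand. Its level was 20.1, 23.4 and 22.1 CPM in the Empty libraries, 25.7, 21.6 and 31.6 in NF-YAl A, B and D, and 15.7, 14.4 and 14.9 in NF-YAs. The NF-YAs libraries lay below every other library, while NF-YAl B fell within the Empty range. CDKN1B fell in NF-YAs by 0.54 on the log2 scale (SE 0.140, adjusted p = 0.00987), and the log2 fold change in NF-YAl was 0.27 ± 0.137 (adjusted p = 0.16). In the direct comparison CDKN1B was 1.75-fold higher in NF-YAl than in NF-YAs (log2 fold change 0.81 ± 0.140, adjusted p = 0.00181). The call against Empty sits just inside the threshold and was lost when any one of the 6 Empty and NF-YAs libraries was left out (adjusted p 0.0160 to 0.0433, log2 fold change -0.60 to -0.49). The direct call was lost without NF-YAs B or NF-YAs C (adjusted p 0.0126 and 0.0116). Without NF-YAl D, which had the highest level, the direct log2 fold change was 0.66 (adjusted p = 0.00174).

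The 250 bases before the CDKN1B start, given here because CDKN1B alone of the members was called between the isoform lines, held 2 CCAAT boxes on the plus strand, 172 and 48 bases before the start. NF-Y binding was not measured, and the part of these boxes in the CDKN1B level was not tested. RefSeq promoter sequence on GRCh38.p14, chr12:12717118-12717367, plus strand, 5′ to 3′, with CCAAT in capitals, was as follows.
CDKN1B: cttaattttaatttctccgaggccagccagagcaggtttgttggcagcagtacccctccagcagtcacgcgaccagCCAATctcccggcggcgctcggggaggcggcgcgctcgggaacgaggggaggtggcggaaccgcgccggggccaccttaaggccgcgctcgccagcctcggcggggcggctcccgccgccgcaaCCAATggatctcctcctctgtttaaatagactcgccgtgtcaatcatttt

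CDKN1C encodes p57, an imprinted CIP/KIP inhibitor at chr11:2904443-2907005 on the minus strand. Its level was 12.8, 18.2 and 22.6 CPM in Empty, 11.7, 13.3 and 17.5 with NF-YAl, and 8.46, 8.61 and 9.22 with NF-YAs. The NF-YAs libraries were below all others and close to each other, whereas Empty spread widely and overlapped NF-YAl. CDKN1C was 2.04-fold lower with NF-YAs than in Empty (log2 fold change -1.03 ± 0.205, adjusted p = 0.00212) and did not pass with NF-YAl (-0.33 ± 0.200, adjusted p = 0.232) or between NF-YAl and NF-YAs (0.70 ± 0.207, adjusted p = 0.0297). The call in NF-YAs was lost without Empty C (-0.83, adjusted p = 0.0127), NF-YAs A (-1.0, 0.0116) or NF-YAs B (-1.01, 0.0113). KCNQ1OT1, the long noncoding RNA of the same imprinted region, was at 2605 ± 556 CPM in Empty, 2522 ± 697 with NF-YAl and 1843 ± 177 with NF-YAs, and its log2 fold change of -0.50 with NF-YAs did not pass (adjusted p = 0.0667).

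As shares of the summed CIP/KIP transcripts in TPM, CDKN1A made up 40.2% to 43.2% in Empty, 39.6% to 47.4% with NF-YAl and 60.6% to 64.6% with NF-YAs. CDKN1B took 23.5% to 30.4%, 29.3% to 33.8% and 18.6% to 22.1%, and CDKN1C took 27.3% to 33.3%, 20.8% to 26.6% and 16.7% to 17.9% in the same order. The make-up of the family in NF-YAs thus did not overlap with either other line for any of the 3 genes. CDKN1A held a larger share there, and CDKN1B and CDKN1C smaller ones. The 3 shares of a library make up the whole, so they are not separate results. Smaller shares of CDKN1B and CDKN1C leave a larger one for CDKN1A, whose own level was not called by edgeR in any comparison. The shares were not tested on their own. The sum itself was alike relative to the D-type cyclins in Empty (0.144 to 0.213) and NF-YAs (0.178 to 0.198) and was 0.201 to 0.283 with NF-YAl.

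CDKN2A, at chr9:21967751-21995300 on the minus strand, encodes both the INK4 inhibitor p16 and, from another first exon and reading frame, ARF, which binds MDM2 and is no CDK inhibitor. Its level was 38.3, 37.6 and 34.0 CPM in Empty, 28.4, 37.7 and 34.8 with NF-YAl and 33.2, 39.4 and 41.3 with NF-YAs. The groups overlapped, and no comparison passed (log2 fold change -0.12 ± 0.124 in NF-YAl, adjusted p = 0.494, and 0.05 ± 0.124 in NF-YAs, adjusted p = 0.775). The transcripts split unevenly: the ARF transcript NM_058195.3 held 94.3% to 95.2% of CDKN2A TPM in Empty, 88.2% to 96.4% with NF-YAl and 95.5% to 96.8% with NF-YAs. The p16 transcript NM_000077.4 had 2.06 to 7.76 expected counts in Empty, 0 to 0.520 with NF-YAl and 0 to 5.35 with NF-YAs. CDKN2A RNA in these spheroids was therefore nearly all ARF, and it is left out of the INK4 sums below except for its other transcripts, which gave 1.45 to 4.70 TPM.

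CDKN2B encodes p15, an INK4 inhibitor known for its response to TGF-beta, and lies next to CDKN2A at chr9:22002902-22009304 on the minus strand. Its level was 60.2, 51.4 and 56.8 CPM in Empty, 119.9, 85.7 and 102.9 with NF-YAl A, B and D, and 82.1, 70.9 and 79.6 with NF-YAs. All 6 overexpressing libraries exceeded all Empty libraries, and the NF-YAl libraries also exceeded those of NF-YAs. CDKN2B rose 1.83-fold in NF-YAl (log2 fold change 0.87 ± 0.125, adjusted p = 0.000251). In NF-YAs the log2 fold change was 0.47 ± 0.124 and did not pass (adjusted p = 0.0117), nor did the difference between NF-YAl and NF-YAs (0.41 ± 0.124, adjusted p = 0.0332). In NF-YAl the call held under all 17 alternatives tried (0.75 to 1.15), whereas in NF-YAs it was made under 7 of 17, among them the fits without NF-YAl A, B or D (adjusted p 0.00235, 0.00607 and 0.00712). Its neighbours were not called with NF-YAl: CDKN2B-AS1, the antisense RNA that overlaps the locus, was at 14.0 ± 2.49 CPM in Empty, 14.2 ± 2.92 with NF-YAl and 9.73 ± 0.328 with NF-YAs, and MTAP, on the other side of CDKN2A, had log2 fold changes of 0.16 with NF-YAl (adjusted p = 0.416) and 0.09 with NF-YAs (0.634).

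The promoter of CDKN2B, the member called in NF-YAl, is also given, and its 250 bases held no CCAAT on either strand. It lies at chr9:22009306-22009555 on GRCh38.p14, minus strand, and reads 5′ to 3′ as follows, with no capitals because nothing matched.
CDKN2B: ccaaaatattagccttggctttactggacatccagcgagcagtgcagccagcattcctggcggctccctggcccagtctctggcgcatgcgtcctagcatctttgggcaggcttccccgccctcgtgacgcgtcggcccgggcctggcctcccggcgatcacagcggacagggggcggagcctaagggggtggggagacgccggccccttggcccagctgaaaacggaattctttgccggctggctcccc

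CDKN2C, which encodes p18 at chr1:51426417-51440306 on the plus strand, was at 42.3 to 51.9 CPM in Empty, 30.7 to 46.0 with NF-YAl and 39.7 to 42.2 with NF-YAs. CDKN2D, which encodes p19 at chr19:10677136-10679735 on the minus strand, was at 7.84 to 10.2 CPM in Empty, 6.68 to 9.61 with NF-YAl and 9.75 to 10.5 with NF-YAs. Neither passed in any comparison, with log2 fold changes of -0.21 and -0.17 for CDKN2C and -0.14 and 0.11 for CDKN2D in NF-YAl and NF-YAs (adjusted p 0.268, 0.373, 0.549 and 0.621). The 95% confidence intervals against Empty ran from -0.52 to 0.13 for CDKN2C and from -0.50 to 0.47 for CDKN2D over both lines.

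Summed over CDKN2B, CDKN2C, CDKN2D and the CDKN2A transcripts other than ARF, INK4 TPM equalled 0.284 to 0.296 of the summed D-type cyclin TPM in Empty, 0.398 to 0.535 with NF-YAl and 0.340 to 0.362 with NF-YAs. The 3 groups did not overlap, with Empty lowest and NF-YAl highest. CDKN2B made up 21.9% to 29.3% of the INK4 sum in Empty, 37.3% to 49.8% with NF-YAl and 34.2% to 36.6% with NF-YAs, while the share of CDKN2C was 51.8% to 58.6%, 34.9% to 46.4% and 44.3% to 45.9%. These ratios follow from the gene levels above and were not tested on their own.

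**Figure D2:**
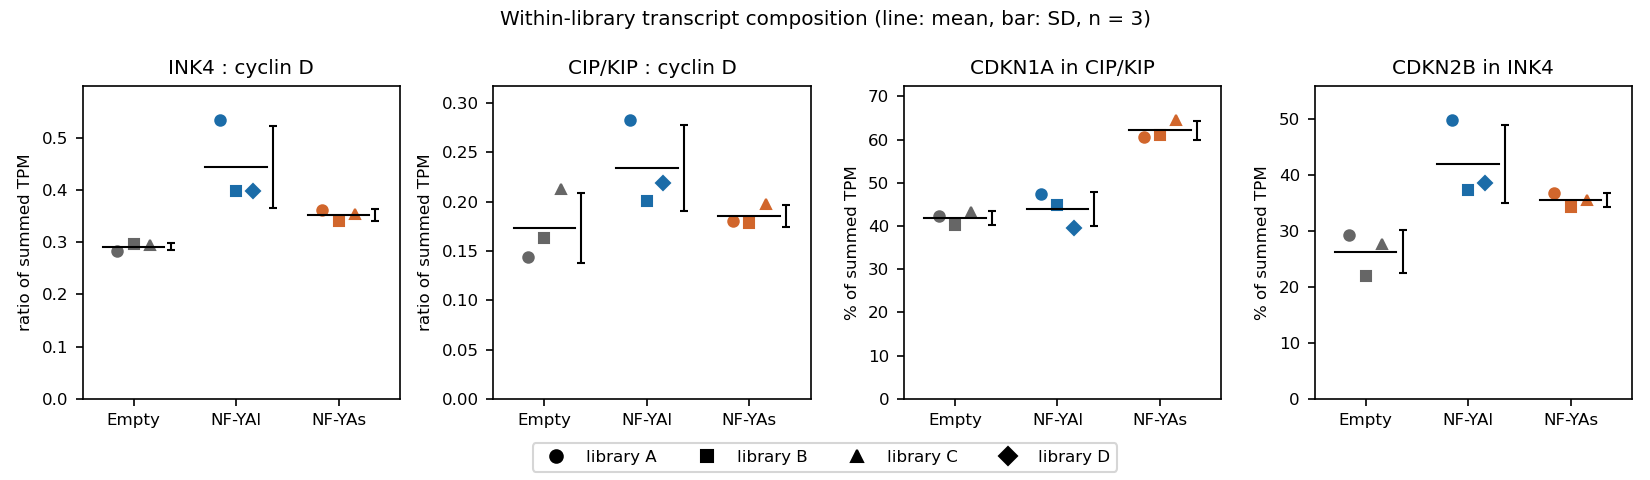
Ratios of summed TPM (INK4 or CIP/KIP over D-type cyclins, the ARF transcript of CDKN2A left out) and shares of CDKN1A and CDKN2B in their families, in % of summed TPM, on y axes that start at 0. Each symbol is 1 library of the group on the x axis, the line is the mean and the bar the SD (n = 3). CDKN1A holds over 60% of CIP/KIP TPM only in the NF-YAs libraries (60.6% to 64.6%), and the INK4 ratio is lowest in Empty (0.284 to 0.296).

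CCND1, the main cyclin D of these cells, lies at chr11:69455924-69469242 on the plus strand. Its level was 705, 761 and 671 CPM in Empty, 411, 539 and 647 with NF-YAl A, B and D, and 572, 565 and 573 with NF-YAs. Every overexpressing library was below every Empty library, but NF-YAl spread over a wide range with library D nearest to Empty. The log2 fold change was -0.42 ± 0.140 in NF-YAl (adjusted p = 0.0375) and -0.32 ± 0.140 in NF-YAs (adjusted p = 0.0937), and neither passed. Without NF-YAl D, the library low in short RNAs, the value in NF-YAl was -0.58 and passed (adjusted p = 0.00214). The share of CCND1 in the D-type cyclin TPM was 86.8% to 87.9% in Empty, 82.2% to 86.8% with NF-YAl and 81.1% to 83.4% with NF-YAs.

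CCND2, at chr12:4378937-4414519 on the plus strand, had 1, 0 and 2 expected counts in Empty A, B and C, 14, 20 and 24 with NF-YAl A, B and D, and 6, 3 and 10 with NF-YAs A, B and C. NF-YAl lay above NF-YAs, and NF-YAs above Empty, in every library. Against a floor of 3 counts per Empty library its group mean was at least 7.01-fold higher with NF-YAl and at least 2.57-fold higher with NF-YAs. Library NF-YAs B, with 3 counts, was itself at that floor. No test is given, because only the overexpressing libraries brought it past the filter. It still took at most 0.0932% of D-type cyclin TPM. Its antisense gene CCND2-AS1 had no counts in any library.

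CCND3, at chr6:41902672-42018095 on the minus strand, was at 44.0, 52.9 and 47.0 CPM in Empty, 40.1, 47.2 and 44.9 with NF-YAl, and 53.9, 50.9 and 60.8 with NF-YAs. Both lines overlapped Empty, and NF-YAl lay below NF-YAs. No comparison passed: the log2 fold changes were -0.12 ± 0.108 in NF-YAl (adjusted p = 0.437), 0.20 ± 0.108 in NF-YAs (adjusted p = 0.165) and -0.32 ± 0.108 between NF-YAl and NF-YAs (adjusted p = 0.0491).

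**Figure D3:**
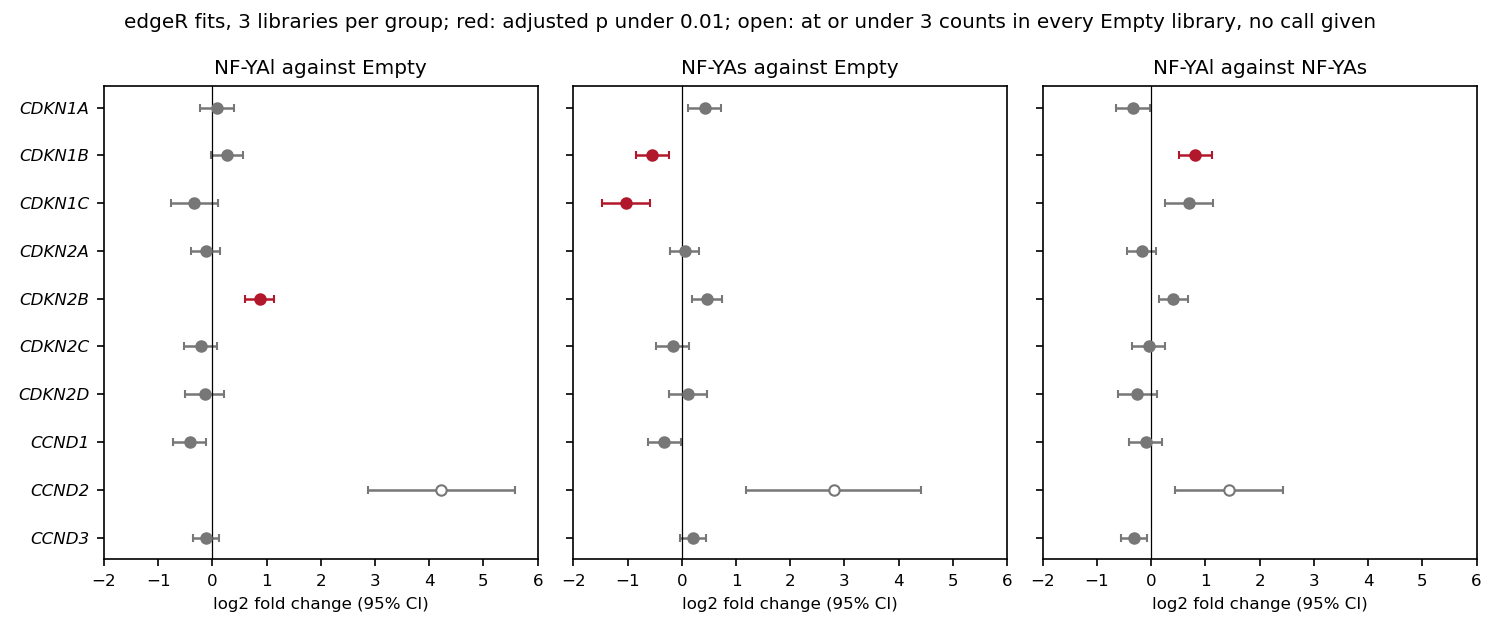
Log2 fold change (x axis) of each member (y axis) from the edgeR fits of each line against Empty and of NF-YAl against NF-YAs, with 95% confidence intervals and 3 libraries per group. Red points had an adjusted p under 0.01: CDKN2B (0.87) in NF-YAl, CDKN1B (-0.54) and CDKN1C (-1.03) in NF-YAs, and CDKN1B (0.81) in the direct comparison. CCND2 is drawn open with no call, since its fitted value depends on very few counts in Empty.

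RefSeq promoters were matched for 7 of the 10 members with 12 starts, and CDKN1C, CCND1 and CCND2 were not matched. The letters CCAAT, read on both strands (ATTGG on the other), occurred in the 250 bases before 5 of the 12 starts, of CDKN1B, CDKN2C, CDKN2D and CCND3, beside 32.0% of 35116 promoters of all genes. At least 2 matches, as in CDKN1B, were found in 9.53% of promoters. CDKN1A, CDKN2A and CDKN2B had no match in this window. The 4 further matches are shown with 13 bases on either side to let their flanks be compared, 5′ to 3′ with the match in capitals, on GRCh38.p14 at chr1:50970137-50970167 (plus strand), chr19:10569196-10569226 (minus), chr6:41941927-41941957 (minus) and chr6:41939252-41939282 (minus). The starts are those of the current RefSeq table and may differ from those of the transcripts the authors used.
CDKN2C: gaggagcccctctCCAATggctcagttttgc
CDKN2D: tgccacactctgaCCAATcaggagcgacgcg
CCND3, upstream start: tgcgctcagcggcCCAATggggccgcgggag
CCND3, downstream start: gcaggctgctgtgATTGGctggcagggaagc

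Transcript shares, as RSEM estimated them, were compared for the 6 members in which at least 2 transcripts each held 10% or more of the gene's TPM in a group mean. The share of the main transcript was tested in each comparison with a two-sided exact permutation test, 18 tests in all, which with 3 against 3 libraries cannot go below p = 0.1. In 9 of the 18 the groups did not overlap and p was 0.1, or 0.2 after Benjamini-Hochberg adjustment over the 18, so no share passed. The 3 comparisons of a gene shared libraries, and the same count over all genes was not made. The 9 of 18 therefore cannot be called many or few.

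The widest gap was that of CDKN1C. The transcript NM_001122630.1 held 33.2% ± 8.55 of its TPM in Empty (SD, n = 3), 65.4% ± 5.87 with NF-YAl and 77.1% ± 15.5 with NF-YAs, and both lines lay above Empty (exact permutation p = 0.1). Its expected counts were 112 to 167 in Empty, 156 to 249.6 with NF-YAl and 100.2 to 169 with NF-YAs, whereas those of NM_000076.2 were 143 to 344, 51.5 to 149 and 23.5 to 46.4. Expected counts of NM_000076.2 were thus lower in every NF-YAs library than in any Empty library, while those of NM_001122630.1 overlapped, as far as the shared reads can be assigned. These counts were not scaled to library size, so an overlap in counts need not be an overlap in level. Libraries held 25033571 to 27163976 expected counts in Empty, 18092007 to 23985635 with NF-YAl and 18076979 to 21533481 with NF-YAs.

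For CDKN2B, NM_004936.3, which encodes p15, held 77.3% ± 2.31 in Empty, 89.6% ± 2.41 with NF-YAl and 90.5% ± 4.61 with NF-YAs. Both lines lay above Empty (exact permutation p = 0.1). The expected counts of p15, not scaled to library size, were 975 to 1145 in Empty and 1852 to 2307 with NF-YAl. For CDKN2C the shorter transcript NM_078626.2 held 58.5% ± 4.57 in Empty, 64.9% ± 4.59 with NF-YAl and 48.6% ± 4.82 with NF-YAs, and NF-YAs lay below both others (exact permutation p = 0.1 each). As shares of expected counts, which are not corrected for length, it held 42.1% to 50.5% in Empty. The main transcript of CDKN1A, NM_000389.4, held 80.2% ± 6.33 in Empty and 92.0% ± 4.19 with NF-YAs without overlap (exact permutation p = 0.1). CCND3 and CDKN2D had smaller shares of their main transcript with NF-YAl than in Empty, by 12.2 and 5.71 percentage points (exact permutation p = 0.1 each). CDKN1B, CCND1 and CCND2 had a single transcript in the annotation used.

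**Figure D4:**
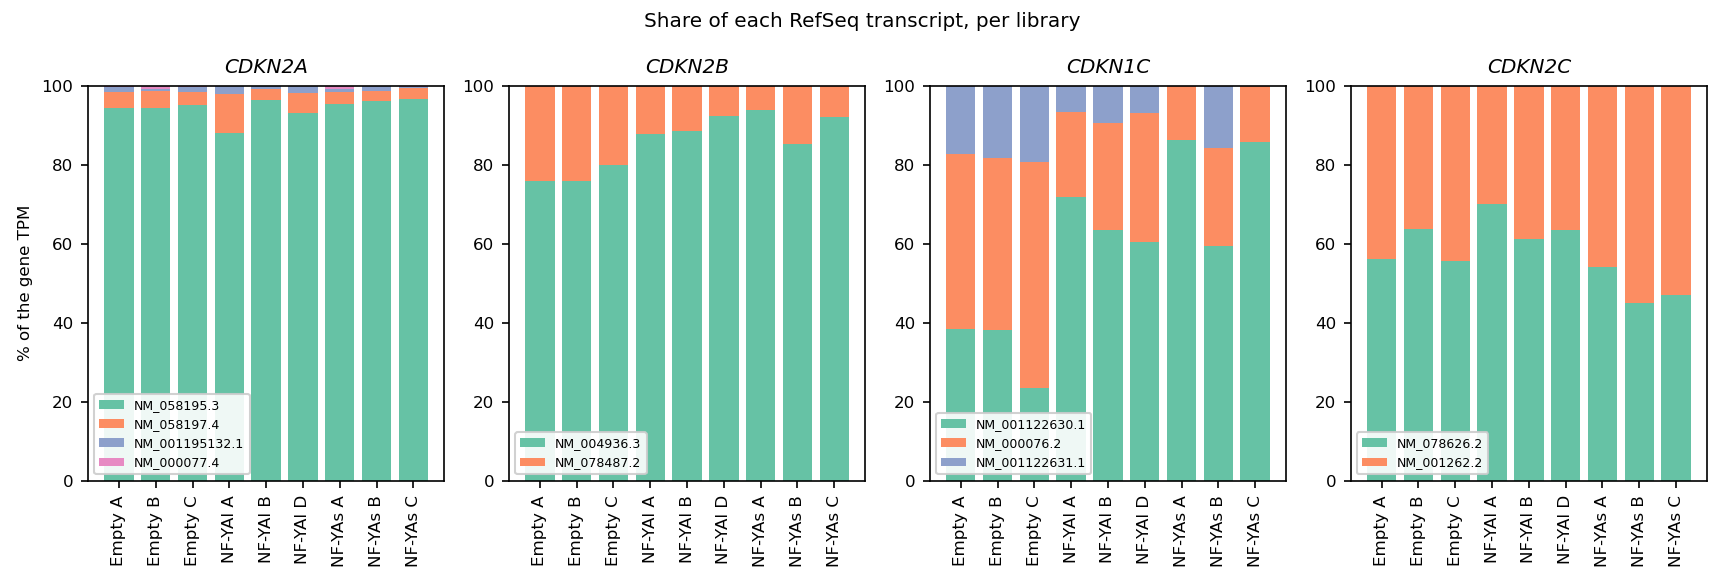
Share of each RefSeq transcript in the TPM of CDKN2A, CDKN2B, CDKN1C and CDKN2C (y axis, %) for each of the 9 libraries (x axis), with transcripts stacked to 100%. The ARF transcript NM_058195.3 fills 88.2% to 96.8% of CDKN2A, and NM_001122630.1 of CDKN1C holds 23.4% to 38.3% in Empty and 59.4% to 86.3% in the other libraries.

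The partners of the members were described from lists of known pathway genes. Every list count here and below stands beside 10% of all genes called higher and 9.54% lower in NF-YAl. The shares were 12.1% and 10.5% in NF-YAs, and 4.7% and 6.25% in NF-YAl against NF-YAs. The lists are short, so their counts describe single genes and are not read as results about a pathway. Among 10 kinases, E-type cyclins and kinase partners, 2 were higher and 1 lower in NF-YAl, and 2 were higher and 0 lower in NF-YAs. CDK6, the kinase shared by all D-type cyclins and INK4 proteins, rose in both lines, from 57.0 CPM in Empty to 98.3 with NF-YAl (log2 fold change 0.79 ± 0.150, adjusted p = 0.00180) and 109 with NF-YAs (0.94 ± 0.151, adjusted p = 0.000481). CDK4 rose in NF-YAs, from 95.6 to 123.9 CPM (0.37 ± 0.0946, adjusted p = 0.00862), and was lower in NF-YAl than in NF-YAs (-0.47 ± 0.0948, adjusted p = 0.00439). CDK2, the main target of CIP/KIP inhibition, fell in NF-YAl from 48.8 to 36.1 CPM (adjusted p = 0.00928) and was lower there than in NF-YAs (-0.68 ± 0.109, adjusted p = 0.00108). CCNE2, a partner of CDK2, rose in NF-YAl (0.62 ± 0.153, adjusted p = 0.00839).

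Of 9 pocket proteins and E2F factors, 1 was higher and 2 were lower in NF-YAl, and 1 was higher and 1 lower in NF-YAs. RBL2, a pocket protein that represses E2F targets in resting cells, fell from 80.9 CPM to 50.8 in NF-YAl (-0.67 ± 0.0813, adjusted p = 7.67e-05) and 43.7 in NF-YAs (-0.89 ± 0.0819, adjusted p = 9.63e-06). TFDP2, a dimer partner of E2F factors, rose in both (1.04 and 0.71, adjusted p = 0.000145 and 0.00174), and E2F4, a mostly repressive E2F, fell in NF-YAl (-0.80 ± 0.172, adjusted p = 0.00386). RB1 had log2 fold changes of -0.14 and -0.30 in NF-YAl and NF-YAs and did not pass (adjusted p = 0.556 and 0.184). Among 12 genes of the turnover of cyclin D and of CIP/KIP proteins, SKP2 fell in NF-YAl (-0.41, adjusted p = 0.00756) and SKP1 in NF-YAs (-0.59 ± 0.117, adjusted p = 0.00212), and the other 11 did not pass in either case.

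Of 13 proliferation genes, 1 was lower with NF-YAl than in Empty (TYMS, -0.69 ± 0.159, adjusted p = 0.00591), 0 passed with NF-YAs by edgeR or DESeq2 (4 at an unadjusted p under 0.05, all higher), and MKI67 and PLK1 were lower with NF-YAl than with NF-YAs (-0.85 ± 0.165, adjusted p = 0.00357, and -1.07 ± 0.205, adjusted p = 0.00321). MKI67, the Ki-67 gene, was at 287 CPM in Empty, 224 with NF-YAl and 402 with NF-YAs. The median log2 fold change of the 13 genes was -0.36 in NF-YAl, 0.18 in NF-YAs and -0.60 in NF-YAl against NF-YAs. At an unadjusted p under 0.05, 6 were lower and 0 higher in NF-YAl, beside 42.2% of all genes in either direction. Between NF-YAl and NF-YAs 9 were lower and 0 higher, beside 36.5%. DESeq2 called 2 and 3 lower and 0 higher in the same order, beside 24.4% and 16.8%. MKI67 and PLK1 were thus lower in the comparison in which CDKN1B was higher, and the part of proliferation in that difference was not tested.

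**Figure D5:**
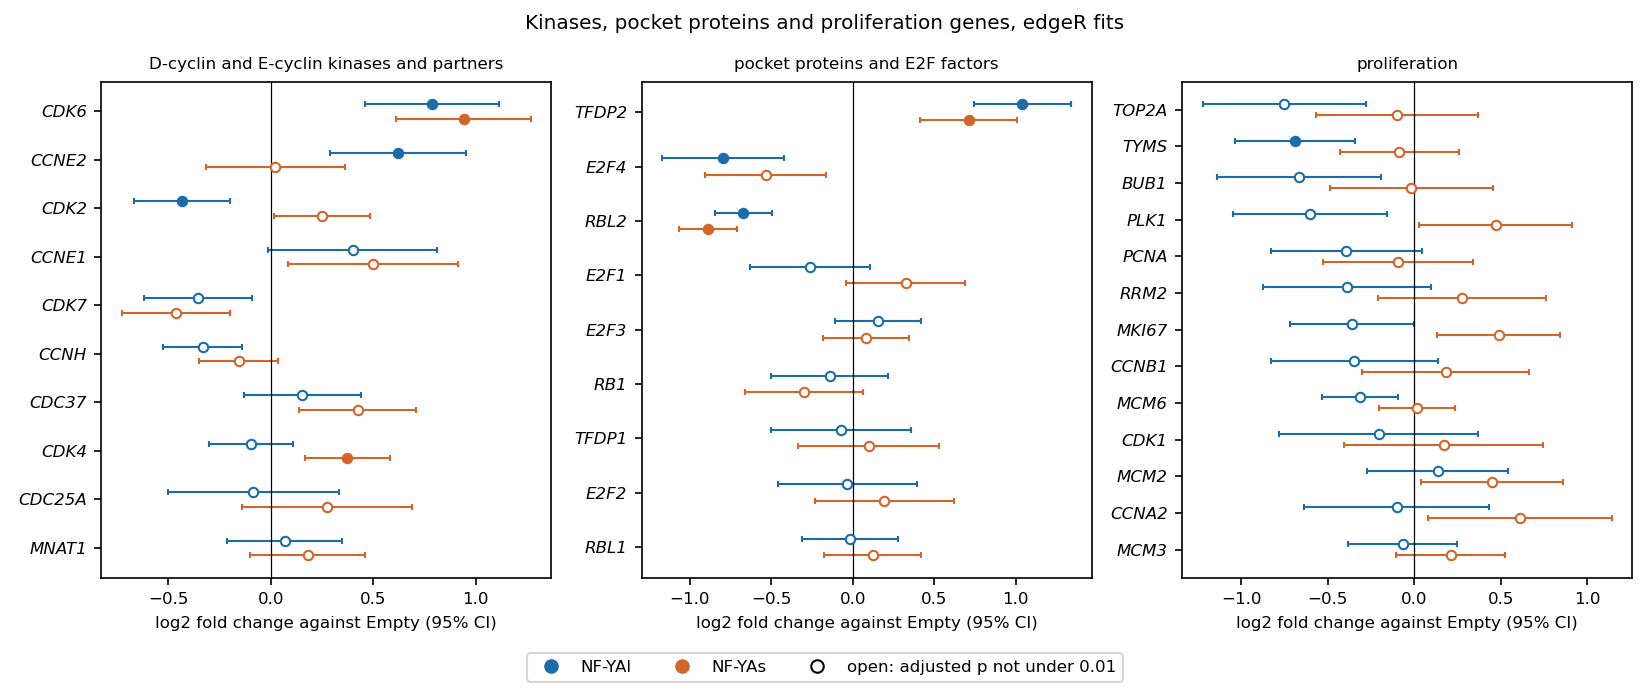
Log2 fold change against Empty (x axis) of kinases and partners, pocket proteins and E2F factors, and proliferation genes (y axes), from the edgeR fits with 95% confidence intervals, 3 libraries per group. Blue is NF-YAl, orange NF-YAs, and filled points had an adjusted p under 0.01: CDK6 (0.79 and 0.94), TFDP2 (1.04 and 0.71) and RBL2 (-0.67 and -0.89) are filled in both lines.

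Known regulators of the members gave mixed counts. Of 11 genes of the TGF-beta and SMAD arm, which acts on CDKN2B and CDKN1A, 2 were higher and 0 lower in NF-YAl by edgeR and DESeq2 alike (1 lower at an unadjusted p under 0.05), and 3 were higher and 3 lower in NF-YAs. The receptor TGFBR2 rose from 64.5 CPM to 113 in NF-YAl (0.81 ± 0.104, adjusted p = 0.000119) and 144 in NF-YAs (1.16 ± 0.105, adjusted p = 8.64e-06), and ID3 rose in both (1.95 and 1.63, adjusted p = 0.00148 and 0.00404). ID2 rose in NF-YAs (0.65, adjusted p = 0.00634). SMAD2 (-0.64, adjusted p = 0.000262), SMAD4 (-0.93, adjusted p = 0.000102) and TGFBR1 (-0.69, adjusted p = 0.000768) fell in NF-YAs, and all 3 were higher in NF-YAl than in NF-YAs (0.55, 0.59 and 0.51, adjusted p 0.00164 to 0.00954).

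Of 8 FOXO, KLF and SP factors, which include activators of CDKN1B and CDKN1A, FOXO1 (0.96, adjusted p = 0.00291) and FOXO4 (1.06, adjusted p = 0.000107) rose and KLF4 (-0.75, adjusted p = 0.00852) fell in NF-YAl, and KLF4 (-1.06, adjusted p = 0.000909) and KLF5 (-0.91, adjusted p = 0.00248) fell in NF-YAs. FOXO4 was also higher in NF-YAl than in NF-YAs (0.58, adjusted p = 0.00858). In NF-YAs against Empty the log2 fold change of FOXO4 was 0.475 (adjusted p = 0.0163) and that of CDKN1B -0.54. The part of these factors in the member levels was not tested. A list of 9 genes held Polycomb genes, whose products silence the INK4 locus, and KDM6B, a histone demethylase that opposes them. In NF-YAl 0 of them passed by edgeR or DESeq2, and 0 had an unadjusted p under 0.05, and BMI1 (-0.82, adjusted p = 0.00452) and SUZ12 (-0.90, adjusted p = 0.000205) fell in NF-YAs.

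Of 13 neighbouring or overlapping genes of the member loci, 9 were tested. In NF-YAl 1 was higher and 0 lower by edgeR and DESeq2 alike (1 lower at an unadjusted p under 0.05), and in NF-YAs 1 was higher and 1 lower. FAF1, next to CDKN2C, rose in both (0.57 and 0.76, adjusted p = 0.00740 and 0.00108), and STK38, near CDKN1A, fell in NF-YAs (-0.54, adjusted p = 0.00142). CDKN2AIP, which encodes a partner of the ARF protein and lies elsewhere in the genome, fell in NF-YAl (-0.64, adjusted p = 0.00611).

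CDKN1B was the only one of the 9 members called in at least 2 comparisons. Among 12125 genes with a mean of at least 5 CPM, those whose pair of log2 fold changes against Empty lay nearest to that of CDKN1B (0.27 and -0.54) were SCARNA17 (0.25 and -0.54), PABPC1P2 (0.25 and -0.56) and MAB21L3 (0.24 and -0.55), at distances of 0.0197, 0.0292 and 0.0332 on the log2 scale. They are given as a description over 3 groups of 3 libraries. PABPC1P2 is a processed pseudogene whose reads can come from its parent gene.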

How the data were processed

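Bulk RNA-seq of 9 libraries of PC-3 spheroids, 3 each of Empty, NF-YAl and NF-YAs as labelled, was used. The authors aligned reads with Bowtie2 within RSEM to RefSeq transcripts of hg19 (GRCh37) and deposited expected counts, RSEM's estimates in which reads that align to several transcripts are shared, without normalization. The deposited TPM were scaled by the authors to a fixed total per library and corrected for effective length, and for each transcript the authors deposited its percent of the gene's TPM. Effective lengths were not used.

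Expected counts per gene, rounded to whole numbers, were fitted in edgeR 4.0.16 (R 4.3.3; filterByExpr, TMM, quasi-likelihood F test, Benjamini-Hochberg adjustment), all 9 libraries in 1 fit. A gene was called at an adjusted p under 0.01, and a DEG also had an absolute log2 fold change above 1. CPM are TMM-scaled. SEs and 95% confidence intervals come from the same fit and cover the spread between libraries. A floor of 3 counts per library was used for folds against near-zero groups. Transcript shares were compared with exact permutation tests. Scripts were tested on simulated data. All 10 members were named whatever their values, with NFYA, pathway genes from lists, cell markers, and for members called in at least 2 comparisons the 3 genes with the nearest log2 fold changes. Of the lists, genes that passed were named, with a few that did not. Some listed genes and 1 list are not reported here. The members and lists were chosen with earlier results of these data known. Alternatives were DESeq2 1.42.0, RLE scaling, other filters, a fit of the 2 groups compared, a replicate block, limma 3.58.1 on log2(TPM + 0.5), other thresholds and leaving out each library; limma on TPM rescaled over genes of at least 350 bases was added after seeing the data. Gene positions are from GENCODE on GRCh37 and promoters from RefSeq on GRCh38.p14.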

Additional observations from a re-analysis of the deposited data

Results flagged for a closer look

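CDKN1B differed between the lines overexpressing the isoforms in the direct test, with a log2 fold change of 0.81 for NF-YAl against NF-YAs (edgeR adjusted p = 0.00181). Against Empty its log2 fold change was 0.27 in NF-YAl and -0.54 in NF-YAs, and all 3 NF-YAl libraries (21.6 to 31.6 CPM) exceeded all 3 NF-YAs libraries (14.4 to 15.7 CPM). Over the alternatives tried the value ran from 0.65 to 0.93, with adjusted p from 4.34e-06 to 0.0892.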

How the results depend on the processing

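There were 506 values of the 30 member log2 fold changes under alternatives, those of CCND2 included. Of these, 462 kept their direction and their side of the adjusted p of 0.01, 16 lost the call, 14 gained one and 14 turned direction. None of the values that turned direction was called in the main fit. CDKN2B in NF-YAl held throughout. CCND2, for which no test is given, is left out of the calls that follow, except where it is named. Of the other 9 members, CDKN2B alone was called higher in NF-YAl against Empty, and 0 were DEGs. Called lower there (0) was 1, CCND1, under the replicate block and at an adjusted p under 0.05. Only NF-YAl has a letter D, so the block gives NF-YAl D a term of its own and rests NF-YAl on A and B. For NF-YAl the block is therefore not separate from leaving out NF-YAl D. In NF-YAs, where 0 members were called higher, CDKN2B was called under DESeq2, with no filter and in the fit of only the 2 groups. CDKN1A and CDKN2B were called higher there under the replicate block and at an adjusted p under 0.05. Members called lower in NF-YAs (2) were 0 under limma on log2(TPM + 0.5), 1 with TPM rescaled over genes of at least 350 bases (chosen after seeing the data), 1 as DEG and 3 in the fit of only the 2 groups, which adds CCND1 (adjusted p = 0.00338). Calls over all genes in NF-YAs moved too, from 22.6% to 27.3% under DESeq2, 17.1% with no filter, 36.1% in the fit of only the 2 groups, 31.1% under the replicate block, 6.8% under limma, 22.5% with rescaled TPM and 35.5% at an adjusted p under 0.05. For NF-YAl against NF-YAs they moved from 10.95% to 16.8%, 8.84%, 6.21%, 16.4%, 3.08%, 10.1% and 23.3%, and for NF-YAl against Empty from 19.6% to 24.4%, 14.8%, 12.9%, 24.3%, 6.69%, 19.7% and 32.1%, in the same order. For NF-YAl against NF-YAs, members called higher (1) were 2 under DESeq2 and 2 under the replicate block. They were 0 under limma on log2(TPM + 0.5) and 0 as DEG. At an adjusted p under 0.05 they were 4 with CCND2 counted, namely CDKN1B, CDKN1C, CDKN2B and CCND2 itself. Members called lower (0) were 1 at an adjusted p under 0.05. Except where the setting itself shows it, the cause was not tested.

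Leaving out 1 library gave 0 to 1 members called lower in NF-YAl (1 without NF-YAl D), 0 to 1 called higher in NF-YAs, 0 to 2 called lower in NF-YAs (0 without Empty C, NF-YAs A or NF-YAs B), and 0 to 1 called higher for NF-YAl against NF-YAs (0 without NF-YAs B or C). Turned directions, all of values that did not pass, were those of CDKN1A in NF-YAl (-0.026 to 0.24 when 1 library was left out), CDKN2A in NF-YAs (-0.015 to 0.14), and CDKN2C (-0.17 to 0.10) and CCND1 (-0.26 to 0.057) for NF-YAl against NF-YAs. Limma on log2(TPM + 0.5) put the median log2 fold change of all genes at 0.25 in NF-YAl, 0.15 in NF-YAs and 0.11 between them. In the main fit these medians were 0.011, -0.0026 and 0.018. Limma turned CDKN1C (0.019), CDKN2A (0.16), CDKN2C (0.12), CDKN2D (0.13) and CCND3 (0.18) in NF-YAl. For NF-YAl against NF-YAs it turned CDKN2C (0.19) and CCND1 (0.0072). It also raised the share of higher calls among all called genes to 77.1% in NF-YAl and 71.3% in NF-YAs, from 51.2% and 53.4%. With rescaled TPM the values were 0.031 for CDKN2A and 0.047 for CCND3 in NF-YAl and 0.13 for CDKN2C between the lines.

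Libraries of the same letter were not paired by the labels, and their deviations from the group means correlated at 0.12 on average over 7 pairs (-0.07 to 0.31) against -0.04 over 20 pairs of different letters. Differences between groups in the share of the main transcript moved by less than the larger SD of the groups compared when shares of expected counts were used or 1 library was left out, although the shares themselves can move by more. Depth limits CCND2 (2 counts or fewer in Empty) and the p16 transcript.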
